A study of Homo sapiens with 8 samples.

Results

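The histone genes were examined as a family, to see where on these short genes the leukemia fusion proteins AML1-ETO and ETO2-GLIS2 were found. Members were the protein-coding genes of the hg19 annotation whose symbol begins with H1-, H2AC, H2BC, H3C or H4C and a number. There were 69 of 20163 protein-coding genes: 10 H1, 16 H2A, 17 H2B, 13 H3 and 13 H4 genes. Of these, 12 lay on chromosome 1, 51 on chromosome 6 and 6 elsewhere, and 60 had a single exon. The annotation lists another 2 histone genes, HIST2H2AA3 and HIST1H4B, under older symbols. They fall outside the rule and were used only in an alternative count.

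Core histones H2A, H2B, H3 and H4 form the nucleosome, and H1 binds the linker DNA between nucleosomes. Most genes of this family are replication-dependent. They are transcribed in S phase from clusters gathered in histone locus bodies around the coactivator NPAT. Their transcripts usually lack introns and end in a stem-loop that SLBP binds in place of a poly(A) tail. H2A and H2B genes often stand head to head and share the DNA between their starts. The family also holds linker histones that are expressed outside S phase or in germ cells, such as H1-10, H1-7 and H1-8.

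The study compared the fusion proteins in U937, a human monoblastic cell line. AML1-ETO carries the Runt DNA-binding domain of RUNX1, and ETO2-GLIS2 carries the zinc fingers of GLIS2. Each was expressed with an N-terminal HA tag from a doxycycline-inducible retroviral vector in a stable line grown from a single clone. All cells received doxycycline at 5 µg/ml, and the times compared were 12 and 48 h. The protocol text names 48 h for every sample, while the titles and treatment labels give 12 h for the earlier ones, which were used. Anti-HA ChIP-seq gave 1 ChIP library and 1 input for each protein and time, 8 libraries in all, with a peak list for each ChIP library. No peak list of uninduced or empty-vector cells was analysed here. With 1 ChIP library per protein and time no difference has a replicate check, no p-value was computed, and time, protein, clone and library cannot be told apart. The lists held 70833 and 105769 AML1-ETO peaks at 12 and 48 h, and 28325 and 30096 ETO2-GLIS2 peaks. The peak lists give no read depth and no expression values. The study lists read numbers for its libraries, which differ between the proteins and were not used here.

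A gene was counted as having a peak when a peak summit, the point of highest signal, lay within 1 kb of its start site. AML1-ETO had a summit at 48 of 69 histone genes at 12 h, 69.6% (95% interval 57.3 to 80.1), against 45.1% of all protein-coding genes. At 48 h it had a summit at 46 histone genes, 66.7% (54.3 to 77.6), against 49.9% of all genes. ETO2-GLIS2 had a summit at 43 histone genes at 12 h, 62.3% (49.8 to 73.7), and at 38 at 48 h, 55.1% (42.6 to 67.1). The shares over all genes were 35.3 and 38.2%. These exact binomial intervals cover counting error only. Neighbouring genes share peaks, so the counts rest on 41, 37, 37 and 31 distinct peaks in the AML1-ETO 12 h, AML1-ETO 48 h, ETO2-GLIS2 12 h and ETO2-GLIS2 48 h lists, an order kept below wherever 4 values follow each other. In all lists the histone share was above the share of all genes.

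The share was not particular to this family. The 87 genes of cytosolic ribosomal proteins, which are also highly expressed housekeeping genes, had a summit at 79.3, 81.6, 62.1 and 63.2%. The 3501 other genes with a second protein-coding start within 1 kb had one at 69.4, 75.4, 55.4 and 59.8%. Other single-exon genes, 1006 in all, had one at only 17.4, 20.5, 12.7 and 13.8%. The histone genes thus lay near the first and second sets and far above the third. No test of these differences was made.

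The histone genes differed from these sets in where on the gene the peaks lay. Of all genes with a summit, 65.6, 80.8, 60 and 66.2% had a peak over the start site itself, against 29.2, 56.5, 9.3 and 23.7% of histone genes. Counted over every member, a peak covered the start of 14, 29, 4 and 9 histone genes, which is 20.3, 42, 5.8 and 13%. The shares of all protein-coding genes were 31.4, 44.4, 22 and 26.4%. Histone genes were thus more often near a summit than all genes, and in 3 lists had a peak on the start itself less often. For AML1-ETO at 48 h, whose peaks were also the widest, the shares were close. Other single-exon genes, which seldom had a summit, had a peak on the start in 12.2, 17, 8.45 and 9.64%, below the histone share in all lists but ETO2-GLIS2 at 12 h. Of those with a summit, 63.4, 72.8, 64.8 and 66.2% had a peak over the start. For ribosomal protein genes with a summit the shares were 39.1, 70.4, 42.6 and 52.7%. For the other genes with a second start they were 61.5, 81.8, 58 and 63.3%. Each of these sets was above the histone genes with a summit in every list.

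Summits within the coding sequence were more frequent at histone genes than over all genes. Of histone genes with a nearby summit, 27 of 48, 21 of 46, 22 of 43 and 21 of 38 had that summit within their own coding bases. These are 56.2, 45.7, 51.2 and 55.3%, against 9.75, 8.81, 7.37 and 8.16% of all genes with a summit. Among ribosomal protein genes the shares were 2.9, 5.63, 5.56 and 3.64%. Among the other single-exon genes they were 32, 33.0, 28.9 and 30.2%, so an intronless structure went with more summits in coding bases there too. The median summit lay 244, 182, 267 and 162 bp downstream of the start of histone genes, against 100, 78, 72 and 74 bp over all genes.

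Whole peaks, not only summits, showed the same placement. Peaks covered 52.3, 59.4, 37.8 and 35% of the 29227 coding bases of the histone genes. They covered 5.84, 9.58, 2.69 and 3.53% of the coding bases of all protein-coding genes, most of which lie far from a start, and 10.6, 14.3, 4.4 and 5.6% of those of other single-exon genes. In the first 500 bp from the start the contrast was smaller. Cover there was 53.6, 60.7, 38.9 and 34.2% at histone genes and 35.1, 45.8, 22.4 and 26.6% at all genes. At the other genes with a second start within 1 kb it was 48.8, 67.5, 31.5 and 37.1%. These were above the histone values in both 48 h lists and below them at 12 h. In the 250 bp upstream of the start the order against all genes turned. Peaks covered 11.3, 28.2, 6.06 and 8.64% of these bases at histone genes and 28.5, 42.2, 19.6 and 23.2% at all genes. At the other single-exon genes they covered 10.3, 16.1, 7.59 and 9.04%, so against that set the order did not turn for AML1-ETO and the values were close for ETO2-GLIS2. The plot of peak cover by distance shows a trough just upstream of histone starts in all lists, with higher cover on either side.

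**Figure D1:**
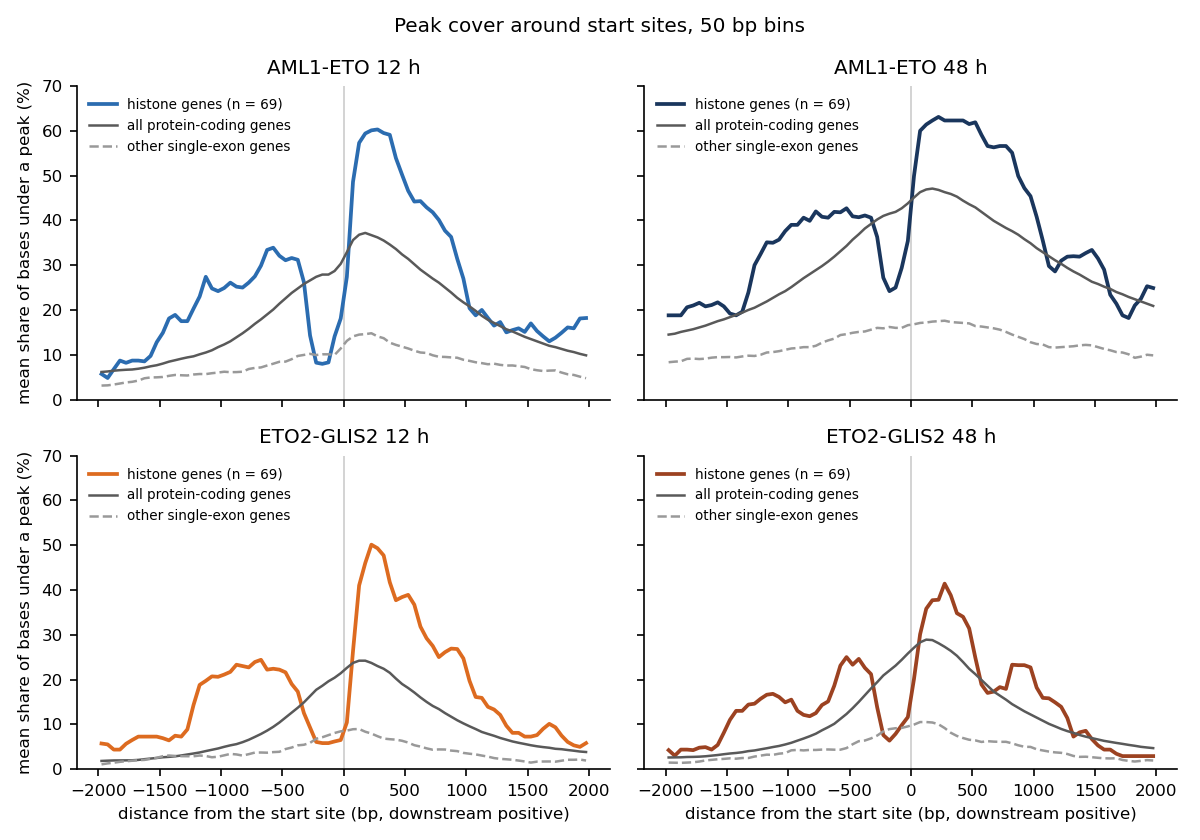
Mean share of bases under a peak (%, vertical axis) by distance from the start site (bp, horizontal axis, 50 bp bins) for 69 histone genes (coloured line), all protein-coding genes (grey line) and 1006 other single-exon genes (dashed line), 1 panel for each peak list. Histone genes were highest at 275, 225, 225 and 275 bp downstream, where 60.3, 63.1, 50.1 and 41.4% of bases were covered, and stood at 18.1, 35.4, 6.49 and 11.6% in the bin just upstream of the start.

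The histone proteins differed in this placement. H2A genes had the clearest form of it for AML1-ETO at 12 h. In the other lists the gap between coding and upstream cover was at least as wide at H3 or H4 genes. Peaks covered 74.1, 74.6, 40.9 and 42.2% of H2A coding bases, and 0.7, 27.8, 0 and 0.95% of the 250 bp upstream. H4 coding bases were covered to 69.5, 69.5, 50.6 and 46.8%, and H3 coding bases to 63.3, 68.9, 51.8 and 44.9%. Upstream, cover was 32, 51.7, 0 and 21.8% at H4 genes and 11.3, 19.2, 2.89 and 3.14% at H3 genes. H1 genes, whose coding sequence is longer, reached 39, 49.5, 33.2 and 35.2%. H2B genes were lowest in every list, at 26.8, 42, 20.7 and 13%. H2A, H3 and H4 coding sequence thus carried more peak than H2B in all lists, and no test was made.

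**Figure D2:**
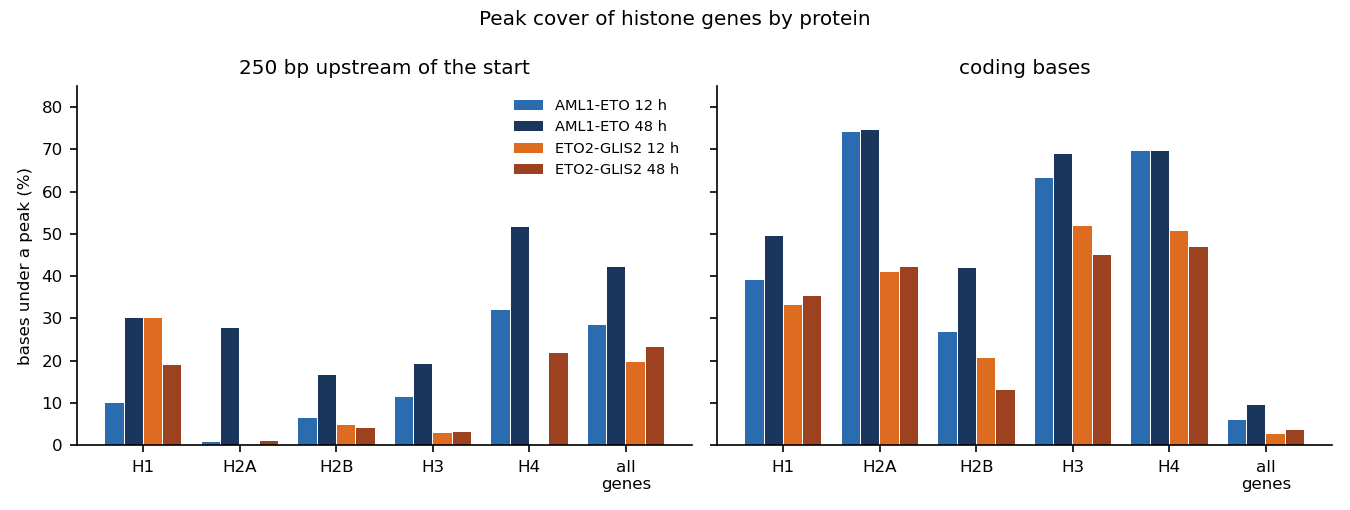
Bases under a peak (%, vertical axis) in the 250 bp upstream of the start (left) and in coding sequence (right) for the 5 histone families and all protein-coding genes, with 1 bar for each peak list and no error bars, since there is 1 library per list. Coding cover exceeded upstream cover in all histone families and lists, while over all genes upstream cover was higher.

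H2B genes had summits nearby about as often as the others, at 11, 13, 9 and 8 of 17. Their median summit position was -352, -413, 216 and -152 bp, upstream of the start in all lists but ETO2-GLIS2 at 12 h, with 4, 4, 5 and 4 summits downstream. In 10 places an H2A and an H2B gene stood head to head with 169 to 250 bases between their starts, so upstream of H2B is the body of H2A. Summits within 1 kb of these pairs numbered 13, 14, 12 and 11. Of these, 6, 7, 2 and 5 lay in H2A coding bases, 1, 1, 3 and 2 in H2B coding bases, and 0 between the starts in any list. The preference for the H2A side was seen in 3 of the lists and not in ETO2-GLIS2 at 12 h.

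**Figure D3:**
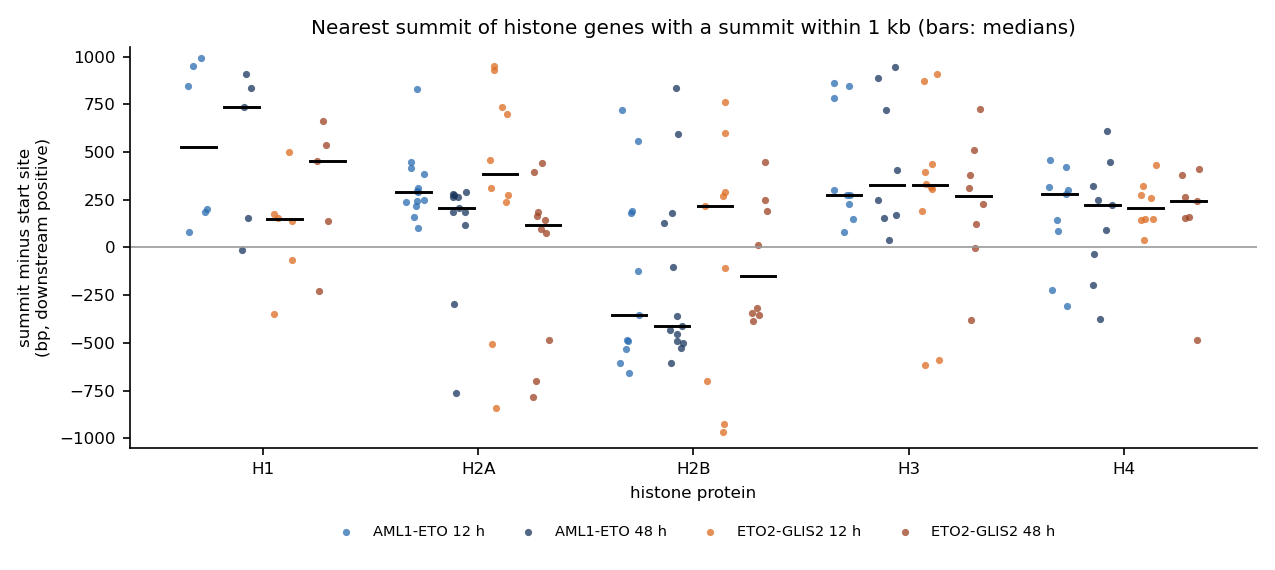
Position of the nearest summit relative to the start site (bp, vertical axis, downstream positive) for each histone gene with a summit within 1 kb, by histone protein and peak list. Points are genes and black bars are medians, and the H2B medians of AML1-ETO lie below 0 at -352 and -413 bp while those of H2A lie above 0.

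H2AC14 and H2BC14 show the arrangement in a single pair. In H2AC14 86.4% of the 32-base words of the coding sequence also occur elsewhere in the genome, against 12.7% in H2BC14. Reads of H2AC14 can thus be placed at copies, and its separate values are uncertain. H2AC14 had AML1-ETO summits 238 and 282 bp downstream of its start, and peaks covered 84.6 and 100% of its coding bases at 12 and 48 h. The ETO2-GLIS2 peak at 48 h had its summit at 142 bp and covered 73.7%, while the nearest summit at 12 h lay at -842 bp, which is 597 bp downstream of the H2BC14 start, and 0% was covered. No H2BC14 coding base was under a peak in any list. At H2AC17 and H2BC17 the H2A side was covered to 100, 100, 100 and 97.4% and the H2B side to 95.5, 56.3, 52.6 and 0%. Neither H2AC1 nor H2BC1, the testis-expressed pair at the edge of the chromosome 6 region, had a summit within 1 kb, and the position of the closest relative to the H2AC1 start was -236078 bp for AML1-ETO at 12 h and 103696 bp for ETO2-GLIS2 at 48 h.

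The DNA between the starts of these pairs is the promoter they share, and it is printed because no summit fell in it. Capitals mark the octamer ATTTGCAT, which POU2F1 binds, the CCAAT box and the TATA box TATAAA, each on either strand (ATGCAAAT, ATTGG and TTTATA when reversed). The sequences are the plus strand of GRCh37 at chr6:27782556-27782799, chr6:27860964-27861202 and chr6:25726791-25727004.
H2AC14/H2BC14: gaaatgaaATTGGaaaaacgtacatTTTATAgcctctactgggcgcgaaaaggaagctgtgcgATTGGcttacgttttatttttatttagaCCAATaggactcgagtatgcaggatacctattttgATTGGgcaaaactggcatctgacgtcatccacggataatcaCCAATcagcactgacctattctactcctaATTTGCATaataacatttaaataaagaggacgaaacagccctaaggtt
H2AC17/H2BC17: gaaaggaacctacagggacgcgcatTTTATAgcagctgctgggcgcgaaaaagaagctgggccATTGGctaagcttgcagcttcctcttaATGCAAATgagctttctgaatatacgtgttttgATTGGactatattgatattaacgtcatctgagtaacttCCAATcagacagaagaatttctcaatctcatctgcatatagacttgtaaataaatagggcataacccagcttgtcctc
H2AC1/H2BC1: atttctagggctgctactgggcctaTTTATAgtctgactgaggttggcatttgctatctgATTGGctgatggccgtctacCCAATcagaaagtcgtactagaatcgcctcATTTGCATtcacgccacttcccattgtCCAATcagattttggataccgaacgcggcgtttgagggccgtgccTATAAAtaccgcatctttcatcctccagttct
All 3 pairs carried the elements of a histone promoter, whether or not a peak lay over the neighbouring gene.

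Across all starts, from 250 bases before to 50 after, these elements marked the family. The octamer was in 36.2% of histone genes and 1.66% of all genes, in 75% of H2A and 70.6% of H2B genes, and in none of the H1 or H4 genes. CCAAT was in 82.6 against 35.8%, and TATAAA in 65.2 against 10.9%. The motif AAACACA, the H1 box, was in 80% of H1 genes and 5.11% of all genes. The motifs of the fusion proteins were not more frequent here. TGTGGT or TGCGGT, the Runt core, was in 18.8% of histone genes and 19.8% of all genes, and TGGGGGG, the GLIS core, was in 0 of 69 against 8.27%. All motifs were searched on both strands as exact letters, and a match is a description of these windows only. Of genes with a summit in all lists, 37.9% had the octamer and 10.3% the Runt core. Of those with a summit in no list, 31.2% had the octamer and 18.8% the Runt core.

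The 200 bases centred on the summits held other letters than the promoters did. The octamer was in none of the windows in any list. The Runt core was in 16 of 41, 10 of 37, 8 of 37 and 11 of 31 distinct windows at histone genes, which is 39, 27, 21.6 and 35.5%. In windows at all genes it was in 22.5, 21.6, 15.4 and 14.8%. The share was thus higher at histone genes in the ETO2-GLIS2 lists as well as in the AML1-ETO lists, and no test was made. Many of these windows lie in coding sequence that is alike between family members, so they are not independent sites. TGCGGT reversed, ACCGCA, opens the H4C1 stretch printed below. It also opens that of H4C13, which had no summit in any list, and not those of H4C3 and H4C16. TGGGGGG was in 0, 1, 0 and 2 histone windows. Counted once per gene, the windows had a median GC content of 61.4, 62.4, 58.7 and 61.2%, against 68.7, 68.2, 69.7 and 69.7% at all genes.

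Base composition moved with position on the histone genes. Their coding sequence had a median GC content of 61.2% and the 250 bp upstream had 44%. All protein-coding genes had the opposite order, with 52.9% in coding sequence and 59.6% upstream. By protein, the upstream median ran from 41.2% in H3 to 53.2% in H1, and the coding median from 58.5% in H1 to 63.2% in H2A. Genes with a summit in all lists had a coding median of 62.2%, and genes with a summit in no list had 59.5%. The part of GC content in the placement of the peaks was not tested.

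The 13 H4 genes allow a closer look, because 12 of them encode the same protein with different codons. The exception is H4C7, whose 294 coding bases translate otherwise and which had no summit in any list. H4C1 was the best ranked histone gene in the AML1-ETO 12 h list, and its summits fell in its coding bases in all 4 lists. Counted from the A of the start codon they lay at bases 113 and 62 for AML1-ETO at 12 and 48 h and at bases 118 and 123 for ETO2-GLIS2. Peaks covered 100, 100, 100 and 70.2% of its coding bases. H4C3, H4C13 and H4C16 had no summit in any list. Their coding bases were 80.9, 85.1 and 84.5% identical to those of H4C1, within or just below the 83.8 to 86.1% of the other H4 genes with a summit. Bases 56 to 175 of each coding strand are printed to show the stretch under the H4C1 summits beside the genes without a peak. Capitals mark bases that differ from H4C1, which are 25, 20 and 22 of 120. The H4C1 stretch is chr6:26021962-26022081 (plus strand), and the others are chr6:26104231-26104350 (plus), chr6:27841114-27841233 (minus) and chr12:14923844-14923963 (minus).
H4C1: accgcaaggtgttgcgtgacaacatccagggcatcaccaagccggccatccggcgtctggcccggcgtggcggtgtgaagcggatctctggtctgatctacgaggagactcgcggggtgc
H4C3: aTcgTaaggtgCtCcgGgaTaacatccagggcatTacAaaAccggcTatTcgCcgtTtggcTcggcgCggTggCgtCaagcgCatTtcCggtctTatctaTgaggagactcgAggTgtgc
H4C13: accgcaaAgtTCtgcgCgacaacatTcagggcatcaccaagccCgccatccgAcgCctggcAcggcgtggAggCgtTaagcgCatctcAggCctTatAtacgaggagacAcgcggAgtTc
H4C16: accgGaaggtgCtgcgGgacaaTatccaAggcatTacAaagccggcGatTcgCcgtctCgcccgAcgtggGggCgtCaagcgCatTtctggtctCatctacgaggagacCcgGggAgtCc
H4 genes with and without peaks therefore did not separate by their identity to H4C1. Other H4 summits lay elsewhere in the coding sequence, from base 11 in H4C15 to base 296 in H4C14, both for ETO2-GLIS2 at 12 h.

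Peaks at histone genes mostly ranked in the stronger part of the AML1-ETO lists and near the middle of the ETO2-GLIS2 lists. Strength was read as the rank of a peak by its -log10 q, in percent of its own list, with the strongest near 0%. The median histone gene with a summit ranked at 22.8, 13, 56.2 and 47.4%. The median over all genes with a summit was 20.2, 11.0, 36.1 and 31.2%. AML1-ETO ranks at histone genes were close to those of other genes, and ETO2-GLIS2 ranks were lower. The median width was 865, 1023, 506 and 424 bp, against 931, 1688, 624 and 715 bp over all genes, so histone peaks were narrower in all lists.

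A stricter threshold on -log10 q, which grows with depth, separated the proteins. Among peaks whose -log10 q reached 10 or more, AML1-ETO kept 34 and 39 histone genes, 49.3 and 56.5%, against 29.3 and 38.7% of all genes. ETO2-GLIS2 kept 6 and 8, 8.7 and 11.6%, against 19.8 and 23% of all genes. The ETO2-GLIS2 share of histone genes was thus above that of all genes in the lists as deposited and below it among the stronger peaks. With a -log10 q of at least 5 it was still above, at 37.7 and 40.6% against 27.2 and 31.8%. With the same number of strongest peaks per list, 28325, the proteins did not separate. AML1-ETO then had 43 and 39 histone genes, 62.3 and 56.5%, against 35.7 and 40.2% of all genes. ETO2-GLIS2 had 43 and 37, 62.3 and 53.6%, against 35.3 and 37.6% of all genes.

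Many histone genes had a summit of both proteins. At 12 h, 41 genes had a summit of each, 59.4% against 31.6% of all genes. These were 85.4% of the AML1-ETO genes and 95.3% of the ETO2-GLIS2 genes, where over all genes the shares were 70 and 89.3%. At 48 h, 33 genes had both, 47.8% against 34.8% of all genes, which were 71.7 and 86.8% of the genes of each protein. Over all genes these shares were 69.7 and 91%, so at 48 h the overlap was near that of other genes. The summits of the proteins at the same gene lay a median of 260 bp apart at 12 h and 247 bp at 48 h, against 200 and 176 bp over all genes.

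Where a gene had a summit within 1 kb at both times, the AML1-ETO summits shifted less than the ETO2-GLIS2 summits. This leaves out genes whose nearest summit lay farther away at either time, and the nearest summits at 12 and 48 h can belong to different peaks. Between 12 and 48 h the AML1-ETO summits of 43 histone genes differed by a median of 67 bp, like the 68 bp over all genes. The ETO2-GLIS2 summits of 34 genes differed by 298 bp, against 51 bp over all genes. Within 200 bp of each other lay 81.4% of the AML1-ETO and 47.1% of the ETO2-GLIS2 summits, and over all genes 70.5 and 73.6%. The nearest AML1-ETO summit still changed at single genes, at H2BC13 from -660 to 835 bp and at H2BC21 from 721 to -499 bp. Around the pairs H2AC13/H2BC13 and H2AC20/H2BC21 the AML1-ETO summits within 1 kb went from 2 to 1. The 48 h peak at H2BC13 was 2597 bp wide. At H2BC21 the nearest 48 h summit belonged to the peak over H2AC20. The median shift at histone genes was larger than over all genes for ETO2-GLIS2 and not for AML1-ETO, with no test. Their ETO2-GLIS2 peaks were also weaker by rank than those over all genes, and the part of signal strength in these shifts was not tested.

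A summit was present in all 4 lists at 29 histone genes, 42%, and in none at 16, 23.2%. Over all genes the shares were 27 and 44.4%. The plot of ranks by gene shows how these genes fall along the chromosomes.

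**Figure D4:**
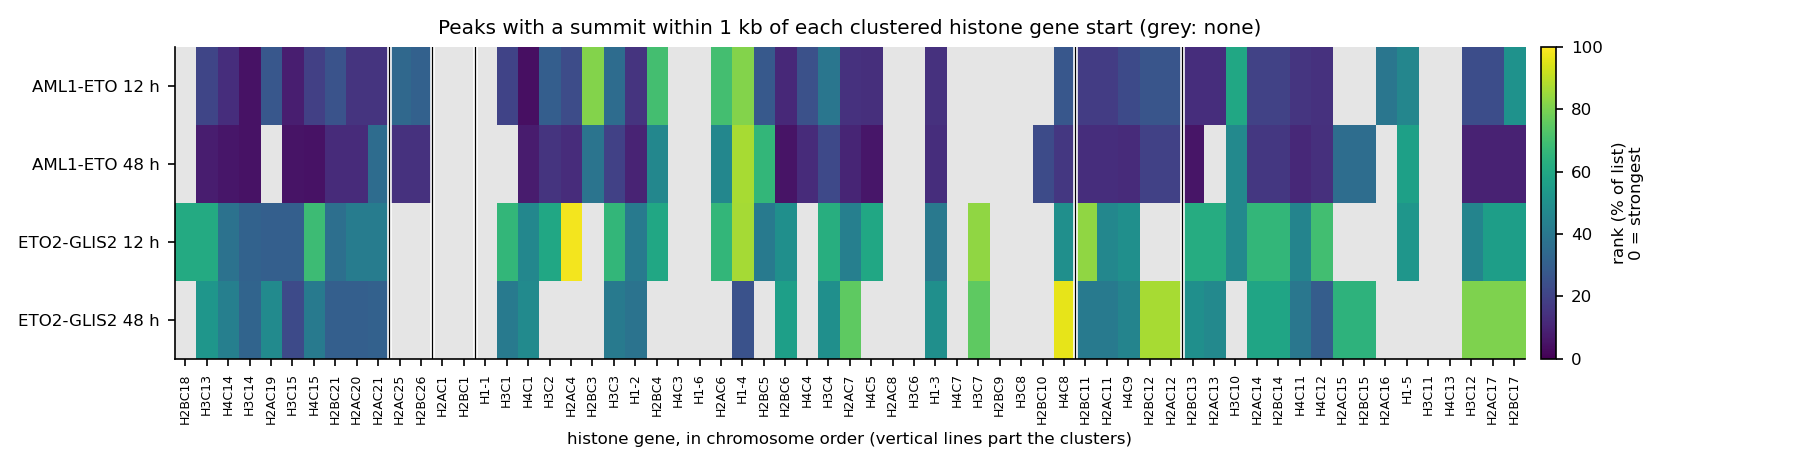
Rank of the peak whose summit lies nearest to each histone gene start, in percent of its list (colour, 0 is strongest), for the histone genes of the 6 clusters in chromosome order (horizontal axis) and the 4 peak lists (vertical axis). Grey marks no summit within 1 kb, and vertical lines part the clusters. The chromosome 1 cluster at the left is filled in nearly all lists, and 12 columns are grey throughout.

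Among genes with a summit in all lists, the H3 genes H3C15 and H3C14 of chromosome 1 had the best mean ranks, 16.7 and 18.3%. H3C15 ranked at 8.5, 5.45, 30.3 and 22.5%, and H3C14 at 4.73, 4.72, 31.3 and 32.2%. Peaks covered all of their coding bases in every list, but no summit lay in those bases. The AML1-ETO summits lay 847 and 946 bp downstream of the H3C15 start and 860 and 885 bp downstream of the H3C14 start. Next came H4C14 and H2AC20 at 24.9%, H2BC21 and the linker histone gene H1-2 at 26.2%, H4C1 at 26.5%, the linker gene H1-10 at 27.9%, H4C11 at 28% and H1-3 at 29.3%. The mean joins lists of unequal length and is a description.

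The best ranked genes differed by protein. In the AML1-ETO list of 12 h they were H4C1 at rank 3023 of the list, followed by H3C14, H3C15, H2BC6 and H4C14. At 48 h they were H3C14 at rank 4961, H4C15, H2BC6, H3C15 and H2BC13. H2BC6 differed from most H2B genes, since its AML1-ETO peaks reached 100% of the 250 bp upstream at both times and its upstream GC content was 67.6%. In the ETO2-GLIS2 list of 12 h the leading genes were H2AC19 and H3C15, which share a peak at rank 8573, then H3C14, H2BC21 and H4C14. At 48 h they included H3C15 at rank 6767, H1-4, H4C12 and H2BC21, whose peak H2AC20 shares. Of genes with an ETO2-GLIS2 summit at both times H1-4 changed most in rank, from 86.6% at 12 h to 25.3% at 48 h, with AML1-ETO at 81.6 and 86.8%. A second ETO2-GLIS2 peak at 12 h, over the end of H1-4, ranked at 41.3%. At 48 h a single peak of 1242 bp spanned both places, with its summit at 536 bp where the nearest had been at 177 bp. The ranks of H1-4 at the 2 times are thus not of the same peak. The widest peaks were at H3C14 with 3364 bp, H4C14 with 5554 bp, H1-3 with 1727 bp and H3C15 with 1486 bp.

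The genes with a summit in no list came from all families. H1-1, H1-6, H1-7 and H1-8 are linker histone genes, of which H1-6 and H1-7 are known from testis and H1-8 from oocytes. The H2A and H2B genes were H2AC1, H2AC8, H2BC1, H2BC9 and H2BC12L. The H3 genes were H3C6, H3C8 and H3C11, and the H4 genes were H4C3, H4C7, H4C13 and H4C16. The clusters held 12 of these 16 genes, often beside genes with peaks. At H2BC9 the nearest ETO2-GLIS2 summits lay at -1295 and -1487 bp, which is 316 and 508 bp downstream of the start of the neighbouring gene H3C7. No member of the main chromosome 1 cluster was among them.

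Genes with only 1 of the proteins at both times were few, with shares near those of all genes. AML1-ETO alone had summits at H2AC25, H2BC26, H2BC3 and H4C4, 5.8% of histone genes against 6.5% of all genes. H4C4 ranked at 24.7 and 12.3%, its summits lay 301 and 247 bp into the gene, and the nearest ETO2-GLIS2 summits were at -6948 and -7796 bp. H2BC3 ranked at only 81.6 and 38.3%. ETO2-GLIS2 alone had summits at H3C7, 1.45% of histone genes against 0.962% of all genes. H3C7 ranked at 83.4 and 75.3%, with the nearest AML1-ETO summits 16495 and 16484 bp downstream.

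From 12 to 48 h AML1-ETO lost the 1 kb call at 5 histone genes, among them H2AC19, H3C1, H2AC13 and H2AC16, and gained it at H2BC10, H2AC15 and H2BC15. At H3C1 the nearest AML1-ETO summit lay 273 bp downstream at 12 h and 1289 bp downstream at 48 h. At 12 h H3C1 and H4C1 had separate peaks, each with a summit in its own coding bases. At 48 h 1 peak of 1753 bp lay over both genes, with its summit in H4C1. For H2AC19 and H2AC13 the nearest 48 h summit lay at -1313 and -1079 bp. Peaks still covered 100% of the coding bases of H3C1, H2AC19 and H2AC13 at 48 h, so there the call was lost while the gene stayed under a peak. H2AC16 differed, with coding cover of 52.1% at 12 h and 0% at 48 h. ETO2-GLIS2 lost H2BC18, H3C2, H2AC4, H2BC4, H2AC6, H2BC5, H4C5, H3C10 and H1-5, and gained H2BC12, H2AC12, H2AC15 and H2BC15. At H2AC6 and H2BC4, a head to head pair, the nearest ETO2-GLIS2 summit at 48 h was 32720 bp from the H2AC6 start. In contrast, the nearest summit went from -923 to -1011 bp at H2BC18 and from -965 to -1257 bp at H2BC5. There the call was lost because peaks at the neighbouring genes H3C13 and H1-4 passed the 1 kb limit. Over all genes, 853 were lost and 1426 gained for ETO2-GLIS2, and 742 lost and 1704 gained for AML1-ETO, so by the 1 kb call histone genes had more losses than gains where all genes had the reverse. By other calls they did not, since AML1-ETO went from 50 to 53 genes within 3 kb while ETO2-GLIS2 stayed at 46, and the counts with the stricter q rose from 34 to 39 and from 6 to 8.

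The share of genes with a summit differed between clusters, several of which were small, and no test was made. Over all genes this share was 45.1, 49.9, 35.3 and 38.2%. Starts less than 200 kb apart formed 6 clusters, and 6 genes stood alone. The 10 genes at chr1:149754245-149859515 had a summit at 9, 8, 10 and 9 of 10, with a median rank of 14.9, 7.12, 39.8 and 32.2%. The pair H2AC25 and H2BC26 at chr1:228622478-228650805 had AML1-ETO summits only. The 28 genes at chr6:26017260-26285866 had a summit at 18, 18, 17 and 11. The 5 genes at chr6:27093676-27115341 had one at 5, 5, 3 and 5, and the 16 genes at chr6:27775257-27861669 had one at 12, 12, 11 and 11. Of the genes that stood alone, H1-10 had a summit in all lists, and H1-7, H1-8, H4C16 and H2BC12L had one in none.

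Most genes of the main chromosome 1 cluster are also near copies, so there cluster and near-copy status cannot be told apart. In 16 histone genes over 50% of the 32-base words of the coding sequence occurred elsewhere in the genome, and in H4C14, H4C15, H3C14, H3C15 and H2AC19 all did, upstream bases included. Reads from such copies can be placed at either copy, so their separate values are uncertain. The 16 genes had a summit in 87.5, 75, 81.2 and 81.2% of cases and the other 53 in 64.2, 64.2, 56.6 and 47.2%. Without them, the coding cover was 47.1, 54, 32.5 and 26.9%. The placement over coding bases was therefore present among genes of mostly distinct sequence, whose share with a summit was also above that of all genes.

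In the largest cluster most peaks lay at histone genes. It spans 268.6 kb and held 24, 25, 21 and 13 peaks, of which 21, 19, 19 and 12 had a summit within 1 kb of a histone start. Of these summits, 11, 10, 11 and 8 lay in histone coding bases. The stretch that holds H4C3 and H1-6 was empty, and the nearest AML1-ETO summit at 12 h was 19295 bp from H4C3. The peak near 10 kb of the map, seen in all lists, lies at HIST1H4B, an H4 gene outside the rule.

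**Figure D5:**
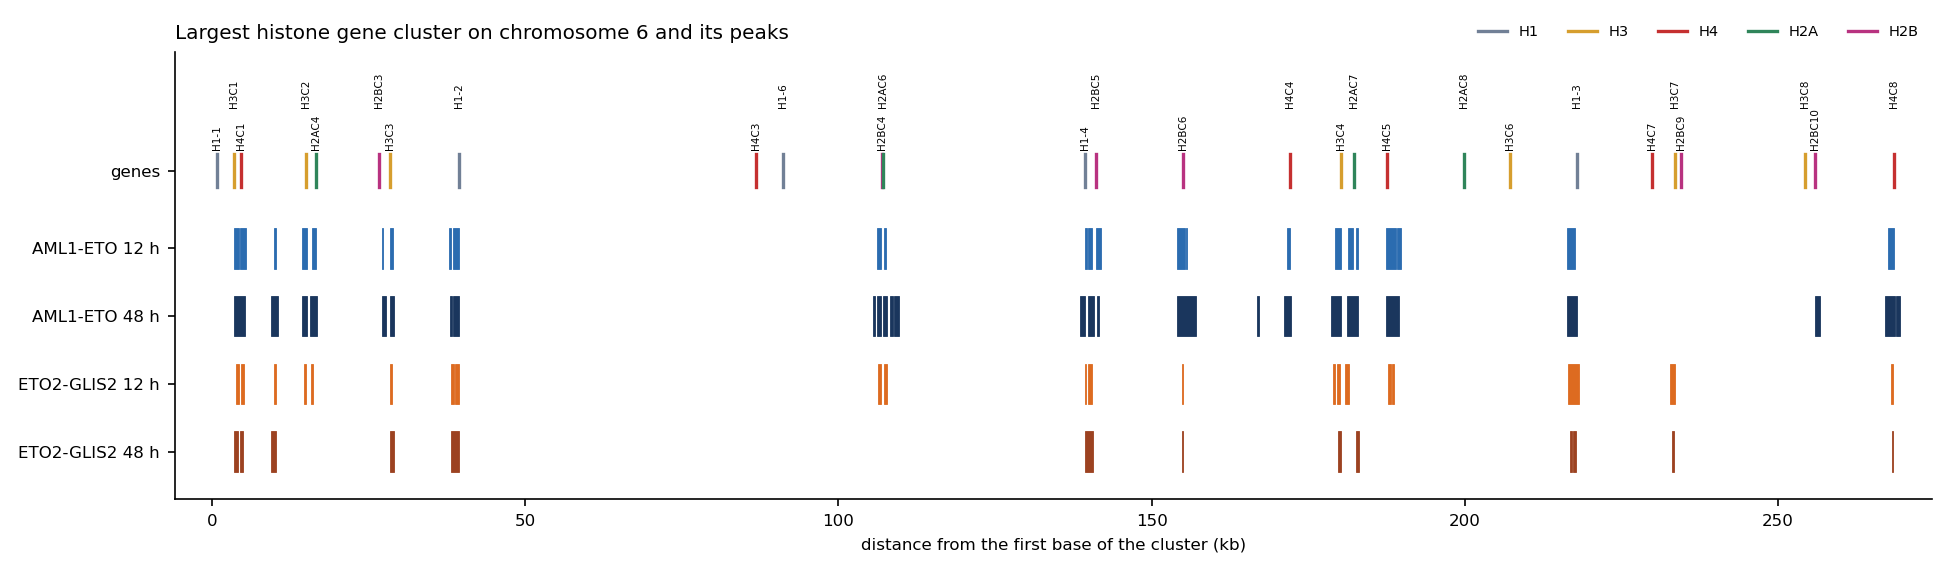
Map of the 28-gene cluster on chromosome 6, with distance from its first base (kb, horizontal axis), histone gene starts (top row, coloured by protein) and peaks of the 4 lists (lower rows, drawn to scale with a thin outline). Most peaks stand at or beside gene starts, and the stretch with H4C3 and H1-6 has none in any list.

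Genes that serve histone expression mostly had peaks as well. The list holds 17 genes for transcription of histone genes and for processing of their pre-mRNA, and 16, 15, 12 and 12 of them had a summit, against 45.1, 49.9, 35.3 and 38.2% of all genes. SLBP, which binds the stem-loop, had strong peaks near its start in all lists, ranked at 3.7, 0.858, 3.32 and 1.25%. HINFP, the H4 promoter factor, POU2F1, the cyclin E genes CCNE1 and CCNE2, CDK2, E2F1, ZNF473, CPSF3 and ERI1 also had a summit in all lists. NPAT and CASP8AP2, both of the histone locus body, had AML1-ETO summits only, and so did SYMPK. CSTF2, a cleavage factor gene, had none.

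Genes listed here as replication-independent histones, which encode variants that are not made in S phase alone, were few. Of 10 such genes 7, 6, 4 and 6 had a summit, against the same shares of all genes. The summit lay in coding bases at 0, 1, 0 and 1 of them, too few to set against the 9.75, 8.81, 7.37 and 8.16% of all genes. H3-3A, which encodes H3.3, ranked at 0.696, 0.0719, 11.3 and 6.03%, better than any of the 69 histone genes in each list. H2AZ1, H2AZ2 and H2AX also had a summit in all lists. H3-5, H2AJ and MACROH2A2 had none.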

How the data were processed

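The data are anti-HA ChIP-seq of U937 lines expressing AML1-ETO or ETO2-GLIS2. Per the labels, the processing tools were Bowtie2 2.2.9, SAMtools 1.7, MACS2 2.1.1.20160309 and deepTools, with hg19. Peaks were called per ChIP library. The MACS2 settings, duplicate removal and handling of multiply mapped reads are not given in the sources used here. The deposited lists give fold enrichment as a ratio, −log10 p and q, a score and a summit. The smallest deposited −log10 q was 1.30 to 1.31. Fold and q grow with depth, so peaks were ranked within a list. The study lists read numbers per library, which were not used here.

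Gene models (starts, exons, coding bases) came from GENCODE 44 in its GRCh37 version, and sequence from GRCh37. The start was the 5′ end of the gene record. Coding bases were the merged coding intervals of protein-coding transcripts. Scripts used Python 3.11.15, pandas 2.3.3 and pysam 0.24.0, and the peak lookup was tested on simulated data. The members and lists were chosen with earlier results of these data known. The single-exon set, the near-copy check and the coding-cover alternatives were added after values were seen.

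Named genes were the 5 best ranked per list, those in no list, the 10 with the best mean rank among those in all lists, those with 1 protein at both times, those lost between times, those of the widest peaks, and pathway genes in all or no lists. NPAT, CASP8AP2 and SYMPK were named beyond this rule. Genes named to illustrate a pair, a copy or a coding position were chosen after their values were seen. Values of 1 histone gene are not reported here by name.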

Additional observations from a re-analysis of the deposited data

Results flagged for a closer look

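From 12 to 48 h the histone genes moved in opposite directions in the libraries of the 2 proteins by 2 measures, and each was lost under at least 1 other setting. The median width of their peaks rose by 158 bp for AML1-ETO and changed by -82 bp for ETO2-GLIS2. Over distinct peaks the ETO2-GLIS2 width was 506 bp at 12 h and 507 bp at 48 h, so the opposite direction was lost, and over all genes it rose from 624 to 715 bp. The share of histone coding bases under peaks rose by 7.1 percentage points for AML1-ETO and changed by -2.8 points for ETO2-GLIS2. With a −log10 q of 5 or more the ETO2-GLIS2 share rose from 23.9 to 30.3%, and with 10 or more from 5.82 to 9.85%, so the direction turned. Over all genes it rose from 2.69 to 3.53%. Each change rests on 1 library per time, and the difference between the proteins was not tested.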

How the results depend on the processing

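Of 96 recomputed values 70 stayed within 1.5 times of the reported count or within its interval, and 26 moved. No direction of a test is at stake, since none was made. Requiring a peak on the start left 14, 29, 4 and 9 genes in the 4 lists (AML1-ETO 12 h, 48 h, ETO2-GLIS2 12 h, 48 h), and 2 and 9 with both proteins at 12 and 48 h. A distance of 500 bp left 28 genes for ETO2-GLIS2 at 12 h, and 22 and 21 with both proteins. A −log10 q of at least 5 left 26 for ETO2-GLIS2 at 12 h and 25 with both proteins at 12 h, and gave a median width of 712 bp and a coding cover of 23.9% there. A −log10 q of at least 10 left 6 and 8 ETO2-GLIS2 genes and 5 and 6 with both proteins, and coding cover was 35.5% for AML1-ETO at 12 h and 5.82 and 9.85% for ETO2-GLIS2. Without the 16 near copies 25 ETO2-GLIS2 genes were left at 48 h, fewer in part because fewer genes were counted. In windows around summits the Runt core was in 30.6% of 144 distinct windows, the octamer in 0%, CCAAT in 16.7%, TATAAA in 4.86% and AAACACA in 0.694%. The cause of the other changes was not tested. The same number of strongest peaks per list (28325), a distance of 3 kb, the start of any transcript, leaving out members outside chromosomes 1 and 6, distinct peaks and the older symbols moved no count past 1.5 times. Rank by fold enrichment moved no median rank out of its interval. No paired analysis was possible because there is 1 ChIP library per protein and time. Depth was not used here, and an absent peak does not show absent binding.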
